A study of Homo sapiens with 2 samples.

Results

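The 6 genes followed here in blood-generating heart-forming organoids (BG-HFOs) belong to the core-binding factor system: the DNA-binding factors RUNX1, RUNX2 and RUNX3, their common partner CBFB, and the ETO-family co-repressors RUNX1T1 and CBFA2T3. They were taken by symbol from the gene lists of both count matrices and are 6 of 36601 genes listed. The matrices came from 2 BG-HFOs at day 14, organoid 32.7 and organoid 33.10, each dissociated on its own and measured as 1 droplet-based 3ʹ single-cell library. Both were grown in Matrigel from aggregates of the human embryonic stem cell reporter line hES3 NKX2.5-eGFP, with WNT signalling first activated and then inhibited and with haemato-endothelial cytokines added, and they hold cardiac, endothelial, mesenchymal and haematopoietic tissue. The organoids are replicates of 1 condition, so all comparisons are between lineages (n = 2 organoids), and 1 cell line limits how far the values can be carried.

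RUNX proteins bind DNA through the runt domain, and the CBFB product strengthens this binding without touching DNA itself. RUNX1 is known for the endothelial-to-haematopoietic transition and for megakaryocyte maturation, RUNX2 for skeletal mesenchyme and bone, and RUNX3 for leukocytes and sensory neurons. RUNX1T1 (ETO) and CBFA2T3 (ETO2) encode co-repressors that bring NCoR and histone deacetylases to DNA, both are fusion partners of RUNX1 in leukaemia, and ETO2 is part of the TAL1 complex of erythroid and megakaryocytic cells.

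RUNX2 and RUNX3 each have a distal and a proximal start in the RefSeq promoter table (GRCh38.p14). The distal promoters are shown because they share a run of RUNX recognition letters, although RUNX2 and RUNX3 were highest in different lineages. Each runs from 250 bases before to 50 bases after the start, and the capitals mark TGTGGT or TGCGGT on either strand (read as ACCACA or ACCGCA on the other).
RUNX2 distal, chr6:45328080-45328379, plus strand: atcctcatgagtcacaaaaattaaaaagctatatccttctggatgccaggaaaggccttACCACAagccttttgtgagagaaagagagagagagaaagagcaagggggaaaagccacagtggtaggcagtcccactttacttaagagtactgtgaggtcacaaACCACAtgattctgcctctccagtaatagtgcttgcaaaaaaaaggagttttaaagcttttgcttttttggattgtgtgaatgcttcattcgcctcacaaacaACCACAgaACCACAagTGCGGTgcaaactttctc
RUNX3 distal, chr1:24964961-24965260, minus strand: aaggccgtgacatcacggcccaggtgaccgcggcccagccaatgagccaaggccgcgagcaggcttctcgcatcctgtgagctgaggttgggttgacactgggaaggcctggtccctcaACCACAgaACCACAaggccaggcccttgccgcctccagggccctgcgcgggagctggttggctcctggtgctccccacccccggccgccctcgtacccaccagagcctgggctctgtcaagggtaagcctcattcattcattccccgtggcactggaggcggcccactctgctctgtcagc

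The RUNX2 stretch held 5 matches, 4 of them TGTGGT, and the RUNX3 stretch held 2. Of 35116 promoters of this length, 19.6% held at least 1 match, 2.32% at least 2 and 0.0370% at least 4. The longest run shared by both was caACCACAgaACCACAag, 18 bases, which was found on either strand in 2 promoters of the table, these ones. The run was taken from these 2 promoters, so finding it in both was fixed in advance. How often other runs of this length recur in the table was not tested. The proximal RUNX2 (chr6:45422025-45422324) and RUNX3 (chr1:24930227-24930526) promoters and those of RUNX1 (chr21:34888650-34888949) and CBFA2T3 (chr16:88941301-88941600) held 0 matches. For RUNX1 and for CBFA2T3 this is 1 start inside the gene's span, and no start further upstream was read. The CBFB and RUNX1T1 promoters were not read. A letter match is not a bound site, and 3ʹ counts do not tell from which start a transcript came.

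In the GENCODE annotation (GRCh38), RUNX1 (ENSG00000159216) spans chr21:34787801-36004667 on the minus strand, RUNX2 (ENSG00000124813) chr6:45328157-45664349 on the plus strand and RUNX3 (ENSG00000020633) chr1:24899511-24965121 on the minus strand. CBFB (ENSG00000067955) spans chr16:67028984-67101058 on the plus strand, CBFA2T3 (ENSG00000129993) chr16:88874858-88977207 and RUNX1T1 (ENSG00000079102) chr8:91954972-92103286, both on the minus strand. Reads in introns were counted. RUNX1 and CBFA2T3 each overlap 1 other gene on the same strand, AF015720.1 and AC092384.3, and reads in the overlap cannot be told apart.

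Cells were placed in 7 lineages by raw UMIs (unique molecular identifiers, 1 per captured molecule) of 1 gate gene each: HBZ, an embryonic globin, at 30 or more; PF4, a platelet factor, at 10; PTPRC (CD45) at 2; CDH5 (VE-cadherin) at 2; MYH6, a cardiac myosin, at 5; COL3A1, a fibrillar collagen, at 20; and AFP, a fetal liver protein, at 20. A cell had to pass 1 gate alone, except that PTPRC was allowed in the HBZ and PF4 lineages, and none of the 6 genes took part. In the order above, organoid 32.7 gave 987, 1257, 886, 2265, 1466, 1517 and 118 cells, and organoid 33.10 gave 2032, 3259, 419, 2157, 1508, 1048 and 12. The AFP values of organoid 33.10 therefore rest on 12 cells. A further 7032 and 7822 cells, with median depths of 3633 and 4930 UMIs, passed no gate, and the 7 lineages held 52.7% to 77.5% of the UMIs of each of the 6 genes.

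Each lineage was checked with marker genes (4 for the HBZ lineage and 5 for each other), which were highest in their own lineage in both organoids, except LAPTM5, a leukocyte lysosomal gene of the PTPRC list, which was higher in the PF4 lineage. The lists also measured blood RNA outside blood cells. The HBZ list (KLF1, ALAS2, HBE1 and GYPB) summed to 17240.4 and 15815 CPM (the UMIs of a gene over all UMIs of the summed cells, scaled to 1000000) in its own lineage and to 52.9 to 205 CPM in the CDH5, MYH6, COL3A1 and AFP lineages, with HBE1 above 0 in each. In the 12 AFP cells of organoid 33.10, 2 of the 4 genes of this list were at 0. The PF4 list (12314 and 10336 CPM at home) summed to 18.2 to 164 CPM there and the PTPRC list (4468 and 2993 CPM at home) to 20.3 to 168 CPM. The PF4 lineage itself held 3801 and 4384 CPM of the HBZ list and 1157 and 1009 CPM of the PTPRC list. Before cells were filtered, the libraries of 16866 and 19948 barcodes had 100 barcodes in common, and 36685 cells were kept.

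By level, RUNX1 separated blood from all other lineages. It was at 480 CPM in organoid 32.7 and 518 CPM in organoid 33.10 in the PF4 lineage, at 373 and 536 CPM in the PTPRC lineage and at 164 and 185 CPM in the HBZ lineage. Outside blood it was at 81.1 and 41.1 CPM in the AFP lineage (123 and 9 UMIs), at 29.4 and 33.9 CPM in the COL3A1 lineage, at 15.3 and 30.2 CPM in the MYH6 lineage and at 11.3 and 19.4 CPM in the CDH5 lineage. The blood values did not overlap with any of these. The gates left cells that passed both CDH5 and a blood gate out of the CDH5 lineage. The part of this rule in the low RUNX1 level there was not tested.

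**Figure D1:**
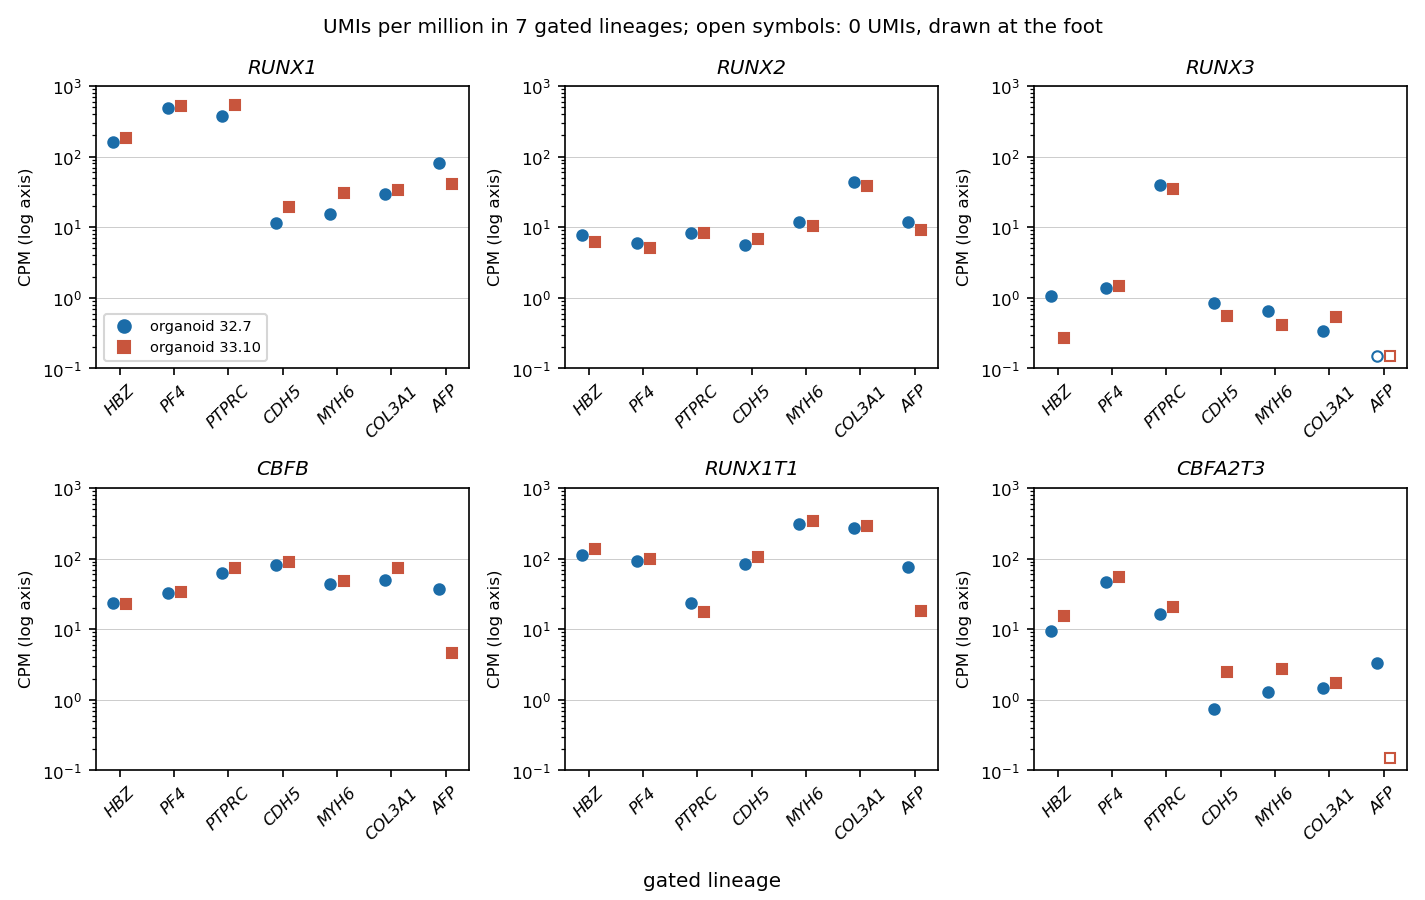
Level of each gene (vertical axis, CPM on a log scale) in the 7 gated lineages (horizontal axis), with 1 point per organoid and open symbols for 0 UMIs. RUNX1 and CBFA2T3 are highest in blood lineages, RUNX3 in the PTPRC lineage (39.7 and 34.7 CPM), RUNX2 in the COL3A1 lineage (43.3 and 38.6 CPM), RUNX1T1 in the MYH6 and COL3A1 lineages and CBFB in the CDH5 lineage (82.1 and 89.0 CPM).

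Over the CDH5 lineage, which holds endothelial cells, RUNX1 was higher by a log2 fold change of 5.28 ± 0.34 (SE) in the PF4 lineage (adjusted p = 6.2e-08), by 5.12 ± 0.34 in the PTPRC lineage (adjusted p = 7.3e-08) and by 3.96 ± 0.32 in the HBZ lineage (adjusted p = 4.7e-07). These and all later adjusted p-values are from edgeR's quasi-likelihood test on UMIs summed per lineage and organoid, with Benjamini-Hochberg adjustment over all genes tested and a threshold of 0.05. The spread was estimated jointly over all lineages of a fit, so an SE does not measure the spread of a single lineage. In the single organoids the HBZ to CDH5 ratio of CPM was 3.85 in organoid 32.7 and 3.26 in organoid 33.10 on the log2 scale. The part of free RNA in the size of these differences was not tested. As a chosen setting, not a measured amount of free RNA, 10% of the mean profile over all barcodes was subtracted. For RUNX1, 10% of the mean level over all cells is 12.5 and 18.5 CPM, close to the CDH5 levels of 11.3 and 19.4 CPM. With that share subtracted, and sums below 0 set to 0, the fitted value was 9.12 for HBZ, 10.47 for PF4 and 10.13 for PTPRC. The CDH5 sums were then at or near 0, so these sizes are not well measured.

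**Figure D2:**
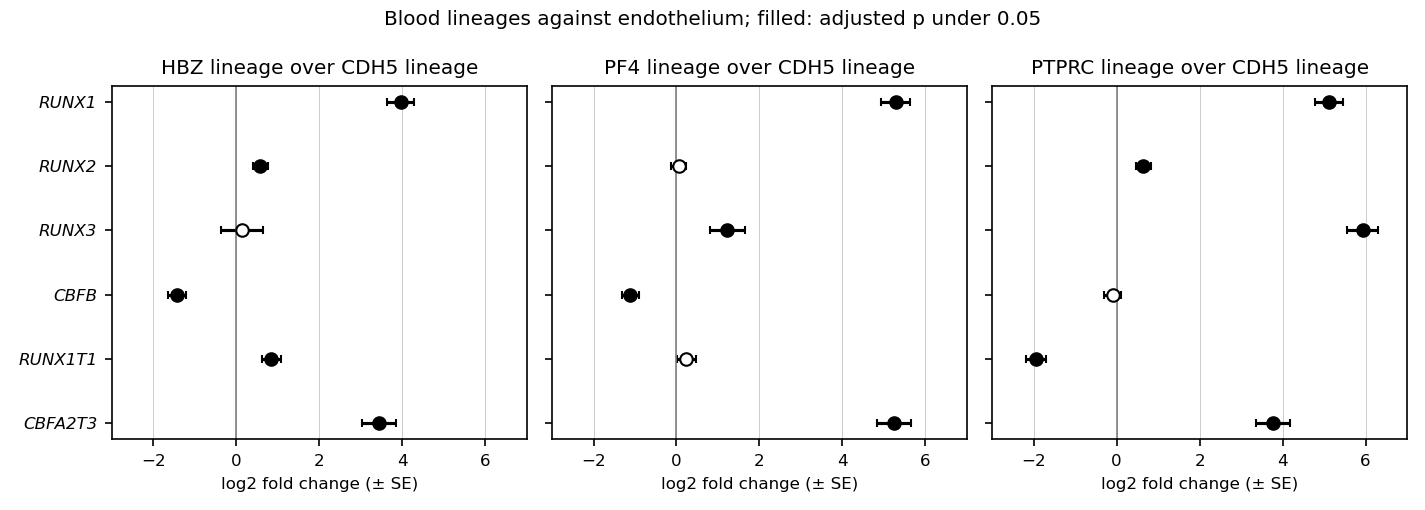
Log2 fold change (horizontal axis, bars SE) of each gene in the HBZ, PF4 and PTPRC lineages over the CDH5 lineage, with filled points for adjusted p under 0.05. RUNX1 and CBFA2T3 lie at 3.44 or above in all 3 panels, RUNX3 lies at 5.93 in the PTPRC panel and CBFB at -1.44, -1.11 and -0.09.

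Within blood, RUNX1 was lower in the HBZ lineage, of erythroid cells, than in the PF4 lineage (log2 fold change -1.32 ± 0.29, adjusted p = 0.0025) and than in the PTPRC lineage (-1.16 ± 0.29, adjusted p = 0.0058). With 10% of the mean profile subtracted these were -1.35 (adjusted p = 0.095) and -1.01 (adjusted p = 0.20). The PF4 and PTPRC lineages did not separate (PTPRC over PF4 -0.16 ± 0.28, adjusted p = 0.68). In the order of levels below blood, AFP lay above COL3A1 (1.18 ± 0.36, adjusted p = 0.034), while COL3A1 against MYH6 (adjusted p = 0.26) and MYH6 against CDH5 (adjusted p = 0.13) did not separate. CDH5 lay below COL3A1 (-1.01 ± 0.30, adjusted p = 0.013). With 10% of the mean profile subtracted it was -5.09 (adjusted p = 0.00055), a size that rests on CDH5 sums at or near 0. The AFP over COL3A1 ratio was 1.46 in organoid 32.7 and 0.28 in organoid 33.10, and the call was lost with higher gates (0.92, adjusted p = 0.065), with all barcodes (1.03, adjusted p = 0.095) and with 10% of the mean profile subtracted (1.88, adjusted p = 0.11).

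The low RUNX1 levels outside blood were set against blood RNA. If RUNX1 had entered each lineage in the proportion it has to PPBP in the PF4 lineage, to TYROBP in the PTPRC lineage and to HBE1 in the HBZ lineage, the 3 shares together would give 4.78 and 9.44 CPM in the CDH5 lineage, against 11.3 and 19.4 CPM measured. In the COL3A1 lineage they would give 6.20 and 9.62 CPM, against 29.4 and 33.9 CPM measured, and in the MYH6 lineage 9.29 and 14.8 CPM, against 15.3 and 30.2 CPM. In the AFP lineage they would give 18.7 and 4.86 CPM, against 81.1 and 41.1 CPM measured. The measured level lay above the proportional one in each of these lineages and organoids. The part of free RNA with other proportions was not tested.

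**Figure D3:**
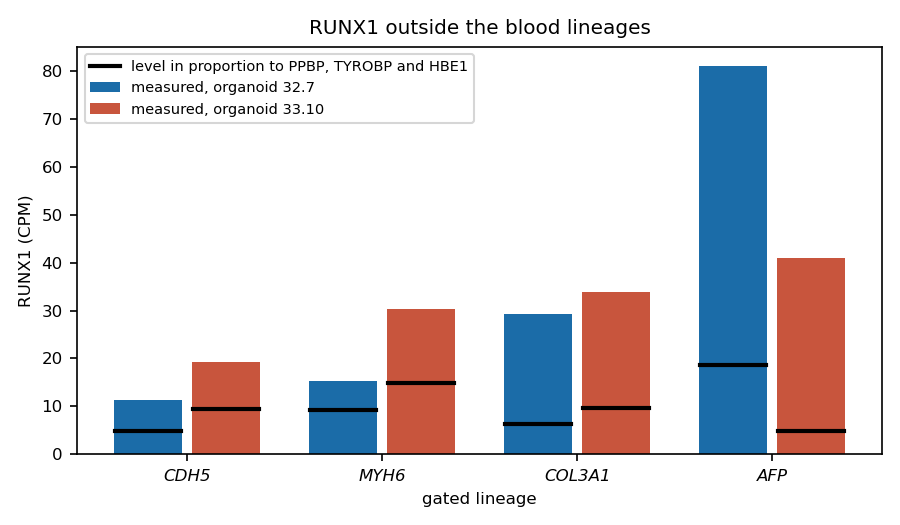
RUNX1 level (vertical axis, CPM, bars from 0) in the 4 lineages outside blood, with 1 bar per organoid and a black line at the level that would go with PPBP, TYROBP and HBE1 at their proportions in blood. Each bar ends above its line, by the smallest margin in the MYH6 lineage of organoid 32.7 (15.3 against 9.29 CPM).

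Cell by cell, each thinned to 2000 UMIs so that depths match, a RUNX1 UMI was found in 40.3% and 43.2% of PF4 cells, in 43.4% and 53.6% of PTPRC cells and in 22.6% and 22.0% of HBZ cells (organoids 32.7 and 33.10). In CDH5 cells the share was 1.78% (95% Clopper-Pearson interval 1.28% to 2.42%) and 2.20% (1.62% to 2.92%), in MYH6 cells 2.45% and 3.99% and in COL3A1 cells 3.03% and 5.15%. AFP cells stood closer to blood, at 16.8% (10.4% to 25.0%) in organoid 32.7, which overlaps the HBZ interval of 19.9% to 25.4%. In organoid 33.10 it was 1 of 11 AFP cells. The AFP sum of organoid 32.7 also carried the PF4 and PTPRC lists at 164 and 168 CPM, whose part in its share was not tested. Intervals and floors cover counting error only. Without thinning, at median depths of 6988 to 17345 UMIs, the shares were 55.6% and 54.3% in HBZ cells, 85.2% and 91.4% in PTPRC cells and 8.48% and 9.55% in CDH5 cells. In AFP cells they were 44.1% and 41.7% (52 of 118 and 5 of 12 cells). The CDH5 UMIs lay in few cells: the 3 richest held 30.6% and 20.5% of them.

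**Figure D4:**
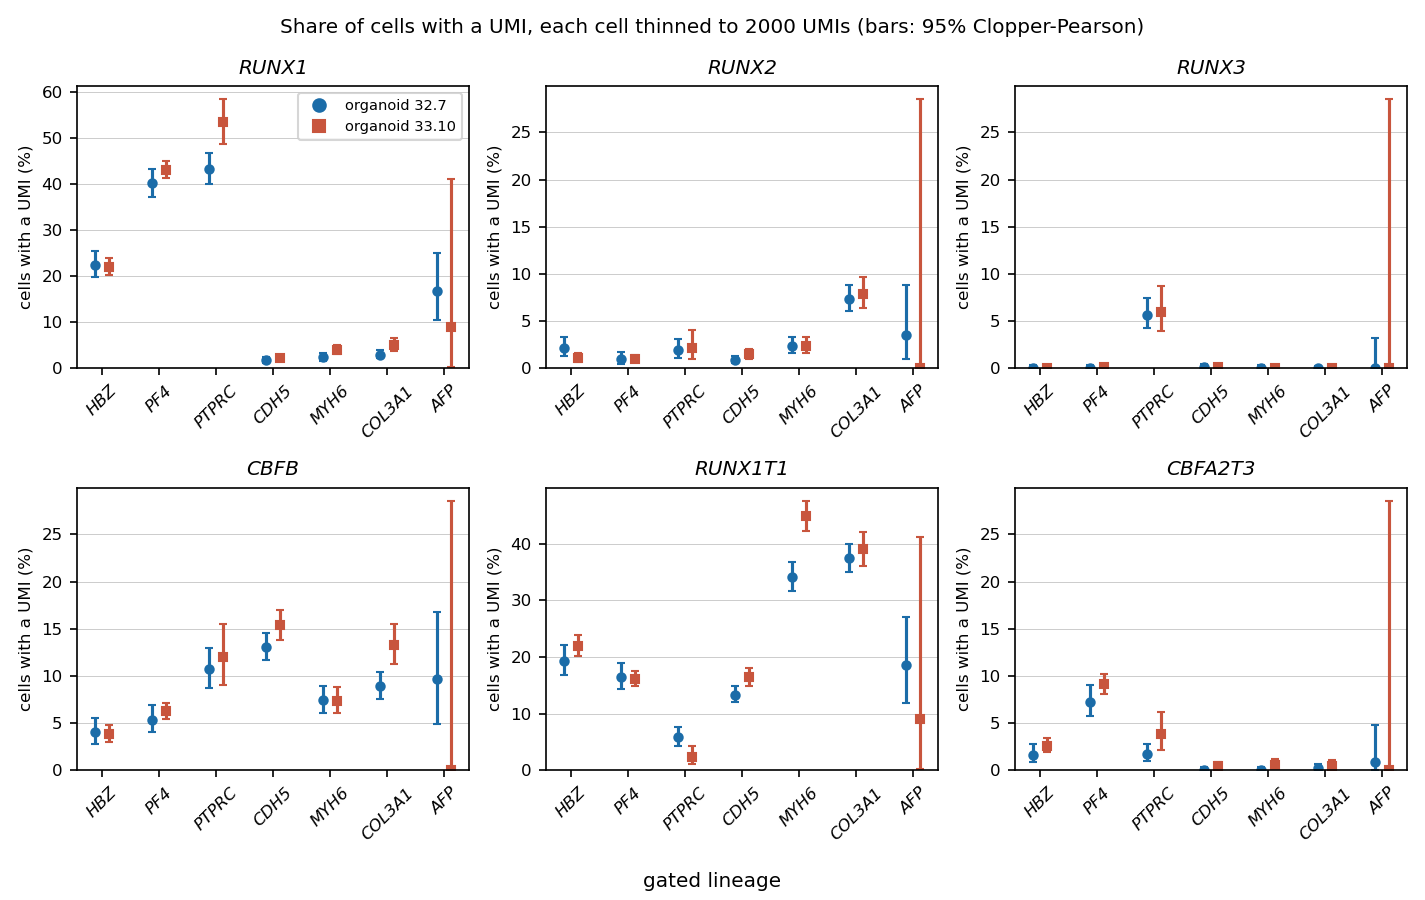
Share of cells with at least 1 UMI of each gene (vertical axis, percent), each cell thinned to 2000 UMIs, in the 7 lineages, with 1 point per organoid and bars for the 95% Clopper-Pearson interval. RUNX1 is found in 22.0% to 53.6% of blood cells and in 1.78% to 5.15% of CDH5, MYH6 and COL3A1 cells. AFP cells of organoid 32.7 lie at 16.8%, with a bar that overlaps that of HBZ cells. The AFP bars of organoid 33.10 are wide because 11 cells entered.

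Cells with both CDH5 and PTPRC, and no other gate, numbered 69 and 23 and were kept as a class without a test. RUNX1 was at 248 and 363 CPM in them, between the CDH5 and PTPRC levels, with a UMI in 55 of 69 and in 23 of 23 cells before thinning. RUNX3 was at 19.2 and 11.8 CPM (42 and 9 UMIs), and CBFA2T3 held 24 and 15 UMIs. Per UMI both also lay between those lineages, as did RUNX1T1 at 57.2 and 65.6 CPM. RUNX2 lay below both lineages, at a mean of 4.68 CPM (SD 0.79). CBFB was at 78.7 CPM in organoid 32.7, again between them, and at 101 CPM in organoid 33.10, above both. Their median depths were 27978 and 27041 UMIs, above those of either lineage, and they carried the CDH5 list at 1652 and 1348 CPM and the PTPRC list at 2239 and 1654 CPM, so that mixed droplets and cells with both programmes cannot be told apart.

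RUNX3 marked the PTPRC lineage. It was at 39.7 and 34.7 CPM there (679 and 291 UMIs), against 1.37 and 1.45 CPM in the PF4 lineage, 1.05 and 0.274 CPM in the HBZ lineage, 0.843 and 0.557 CPM in the CDH5 lineage, 0.649 and 0.417 CPM in the MYH6 lineage, 0.336 and 0.529 CPM in the COL3A1 lineage and 0 UMIs in both AFP sums. No value outside the PTPRC lineage came near those inside it. The difference was 5.93 ± 0.38 over the CDH5 lineage (adjusted p = 1.1e-07) and 4.70 ± 0.36 over the PF4 lineage (adjusted p = 1.2e-06), and the HBZ lineage lay lower than the PTPRC lineage by -5.78 ± 0.41 (adjusted p = 5.2e-07), with single-organoid ratios of -5.24 and -6.98. With PTPRC-positive cells left out of the HBZ and PF4 lineages, RUNX3 was at -7.90 in HBZ over PTPRC and at 6.30 in PTPRC over PF4.

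Thinned to 2000 UMIs, 5.71% (4.27% to 7.46%) and 6.01% (3.93% to 8.74%) of PTPRC cells held a RUNX3 UMI. In COL3A1 cells it was 0 of 1516 and 0 of 1048, which by the limit of 3 counts allows shares of up to 0.198% and 0.286% of cells with a UMI at this depth. Below the PTPRC lineage, PF4 over CDH5 passed the test (1.23 ± 0.42, adjusted p = 0.029), but PF4 cells may hold PTPRC, and with PTPRC-positive cells left out the value was -0.38 (adjusted p = 0.42). The call was also lost with library totals (1.00, adjusted p = 0.059) and with higher gates (1.12, adjusted p = 0.063). The HBZ over CDH5 value of 0.14 ± 0.51 (adjusted p = 0.83) became -1.97 (adjusted p = 0.0054) in the same way. In the HBZ lineage of organoid 32.7, 3 cells held 60% of the 15 UMIs. The level that would go with the 3 blood genes was 0.744 and 0.638 CPM in the MYH6 lineage and 0.516 and 0.437 CPM in the COL3A1 lineage, close to the levels measured. It was 0.312 and 0.318 CPM in the CDH5 lineage, below the measured 0.843 and 0.557 CPM, and 1.34 and 0.199 CPM in the AFP lineage, where 0 UMIs were found.

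CBFA2T3 followed blood with another order. It was at 46.3 and 55.1 CPM in the PF4 lineage, at 16.6 and 20.7 CPM in the PTPRC lineage and at 9.58 and 15.6 CPM in the HBZ lineage. Elsewhere it was at 3.30 CPM or less, with 0.752 and 2.51 CPM in the CDH5 lineage (25 and 72 UMIs). The blood values lay above all others in both organoids. The PF4 lineage exceeded the PTPRC lineage (PTPRC over PF4 -1.47 ± 0.34, adjusted p = 0.0033) and the HBZ lineage (HBZ over PF4 -1.80 ± 0.34, adjusted p = 0.00089), while HBZ and PTPRC did not separate (adjusted p = 0.49).

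Over the CDH5 lineage, CBFA2T3 was higher by 5.24 ± 0.41 in the PF4 lineage (adjusted p = 3.1e-07), by 3.76 ± 0.40 in the PTPRC lineage (adjusted p = 5.4e-06) and by 3.44 ± 0.40 in the HBZ lineage (adjusted p = 1.1e-05). With the subtraction of 10% of the mean profile these were 7.35, 5.64 and 5.50. That share is 0.867 and 1.68 CPM, against CDH5 levels of 0.752 and 2.51 CPM, and sums below 0 were set to 0. The sizes differed between organoids, at 5.94 and 4.46 for PF4, 4.46 and 3.05 for PTPRC and 3.67 and 2.63 for HBZ. The thinned share was 7.27% and 9.14% in PF4 cells and 0.0890% and 0.468% in CDH5 cells. The CDH5, MYH6 and COL3A1 lineages did not separate for this gene.

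CBFB, the common partner, was measured in all lineages and was highest by level in the CDH5 lineage. It was at 82.1 and 89.0 CPM in the CDH5 lineage, at 63.3 and 74.7 CPM in the PTPRC lineage, at 50.4 and 73.4 CPM in the COL3A1 lineage and at 43.4 and 48.3 CPM in the MYH6 lineage. It was at 32.9 and 33.8 CPM in the PF4 lineage and at 23.6 and 22.9 CPM in the HBZ lineage, below those 4 in both organoids. By the test, neither PF4 (-0.19 ± 0.21, adjusted p = 0.48) nor HBZ (-0.51 ± 0.21, adjusted p = 0.057) separated from MYH6. These pairs were not put through the alternatives. The AFP sums held 56 UMIs and 1 UMI (36.9 and 4.56 CPM).

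CBFB was lower in the HBZ lineage than in the CDH5 lineage by -1.44 ± 0.21 (adjusted p = 8.6e-05) and in the PF4 lineage by -1.11 ± 0.21 (adjusted p = 0.00064), whereas the PTPRC lineage did not differ beyond the spread (-0.09 ± 0.21, adjusted p = 0.75). The HBZ lineage also lay below the PTPRC lineage (-1.35 ± 0.22, adjusted p = 0.00026), and PTPRC lay above PF4 (1.02 ± 0.21, adjusted p = 0.0017). By mean level the CDH5 lineage, without the cells that also passed a blood gate, came first for CBFB and last for RUNX1. Thinned to 2000 UMIs, a CBFB UMI was in 13.0% and 15.4% of CDH5 cells and in 4.04% and 3.82% of HBZ cells. CDH5 over COL3A1 was 0.52 ± 0.20 (adjusted p = 0.053), and with the organoid as a block it passed (0.53, adjusted p = 0.0072). MYH6 over COL3A1 was -0.40 ± 0.21 (adjusted p = 0.15) and passed with the block (-0.40, adjusted p = 0.045). AFP over COL3A1 passed (-0.97 ± 0.30, adjusted p = 0.038), but the ratio was -0.45 in organoid 32.7 and -4.01 in organoid 33.10, and with 10% of the mean profile subtracted the call was lost (-1.03, adjusted p = 0.096). Neighbours in the order did not separate at any step in the reported fit, which has no block.

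RUNX1T1 had its highest levels in heart muscle and mesenchyme, at 308 and 339 CPM in the MYH6 lineage and 268 and 291 CPM in the COL3A1 lineage. It was at 111 and 137 CPM in the HBZ lineage, at 84.6 and 105 CPM in the CDH5 lineage, at 91.3 and 97.2 CPM in the PF4 lineage and at 23.8 and 17.6 CPM in the PTPRC lineage. MYH6 and COL3A1 did not separate (0.23 ± 0.23, adjusted p = 0.47), and both lay above the remaining lineages in both organoids.

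The PTPRC lineage was lower in RUNX1T1 than the CDH5 lineage (-1.94 ± 0.25, adjusted p = 2.5e-05, single organoids -1.83 and -2.57), the PF4 lineage (-2.19 ± 0.25, adjusted p = 1.6e-05) and the HBZ lineage (HBZ over PTPRC 2.78 ± 0.25, adjusted p = 2.3e-06). With 10% of the mean profile subtracted these were -3.86, -4.25 and 4.99, and each still passed. That share is 15.9 and 17.9 CPM, close to the PTPRC level in organoid 33.10, and sums below 0 were set to 0. CDH5 was lower than COL3A1 (-1.52 ± 0.23, adjusted p = 0.00017), and with 10% of the mean profile subtracted it was -1.68 (adjusted p = 0.058). The HBZ lineage was lower than COL3A1 (-0.68 ± 0.23, adjusted p = 0.023), a pair that was not put through the alternatives. HBZ over CDH5 passed (0.84 ± 0.23, adjusted p = 0.0082), but not with library totals in place of TMM scaling (0.39, adjusted p = 0.16). The call was also lost with 10% of the mean profile subtracted (1.13, adjusted p = 0.17). Its ratio of CPM was 0.40 in organoid 32.7 and 0.39 in organoid 33.10. The AFP lineage (75.1 and 18.2 CPM, 114 and 4 UMIs) was lower than COL3A1 (-2.16 ± 0.29, adjusted p = 0.00020), with ratios of -1.84 in organoid 32.7 and -4.00 in organoid 33.10, and with the subtraction it no longer passed (-2.44, adjusted p = 0.060). HBZ over PF4 was 0.60 ± 0.23 (adjusted p = 0.057), and with the organoid as a block it passed (0.60, adjusted p = 0.018). Thinned to 2000 UMIs, a RUNX1T1 UMI was in 34.2% and 44.9% of MYH6 cells, in 37.5% and 39.1% of COL3A1 cells and in 5.82% and 2.40% of PTPRC cells.

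RUNX2 was highest in the COL3A1 lineage, at 43.3 and 38.6 CPM (1160 and 802 UMIs). It was at 12.0 and 10.5 CPM in the MYH6 lineage, at 8.35 and 8.34 CPM in the PTPRC lineage, at 7.76 and 6.11 CPM in the HBZ lineage, at 5.66 and 6.89 CPM in the CDH5 lineage and at 6.04 and 5.07 CPM in the PF4 lineage. The AFP sums held 18 and 2 UMIs. The COL3A1 values stood apart from every other lineage.

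The difference was -2.67 ± 0.18 for CDH5 over COL3A1 (adjusted p = 1.2e-07), -1.85 ± 0.17 for MYH6 (adjusted p = 4.3e-06) and -1.83 ± 0.28 for AFP (adjusted p = 0.00055). Thinned to 2000 UMIs, a RUNX2 UMI was in 7.39% and 7.92% of COL3A1 cells and in 0.89% and 1.5% of CDH5 cells. Among the other lineages, CDH5 lay below MYH6 (-0.82 ± 0.18, adjusted p = 0.0018), as did PF4 (-0.77 ± 0.19, adjusted p = 0.0036). These pairs with MYH6 were not put through the alternatives. The small differences of HBZ and PTPRC over CDH5 did not hold under every setting. HBZ over CDH5 (0.58 ± 0.18, adjusted p = 0.018) was 0.46 in organoid 32.7 and -0.17 in organoid 33.10, and library totals gave 0.13 (adjusted p = 0.53). PTPRC over CDH5 (0.64 ± 0.19, adjusted p = 0.011) gave 0.41 with library totals (adjusted p = 0.067). The same holds for the differences over PF4. HBZ over PF4 (0.52 ± 0.19, adjusted p = 0.044) passed in 6 of 13 alternatives and PTPRC over PF4 (0.59 ± 0.19, adjusted p = 0.025) in 9 of 13.

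Counted over the 6 genes, 5 passed the test in HBZ over CDH5, where 53.4% of all 21982 genes passed. In PF4 over CDH5 it was 4 of 6 (52.5% of all genes) and in PTPRC over CDH5 5 of 6 (50.1%). Within blood it was 3 of 6 in HBZ over PF4 (40.2%), 5 of 6 in PTPRC over PF4 (45.4%) and 4 of 6 in HBZ over PTPRC (40.1%). Outside blood it was 3 of 6 in CDH5 over COL3A1 (47.1%), 1 of 6 in MYH6 over COL3A1 (36.7%) and 4 of 6 in AFP over COL3A1 (20.8%). With background shares this large, the counts alone say little about these 6 genes. With the organoid as a block, HBZ over PF4 had 5 of 6, RUNX3 (-1.14, adjusted p = 0.044) and RUNX1T1 joining. The block also raised the calls over all genes there, from 8830 to 10222.

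Library totals in place of TMM shifted the median of all genes by -0.44 in HBZ over CDH5, with RUNX1 at 3.51 and CBFB at -1.88, and lowered the share of higher genes among all calls from 45.9% to 24.5%, and in HBZ over PF4 from 43.4% to 29.4%. In HBZ over PTPRC that share was 44.1%, against 29.4% with library totals, 54.1% with DESeq2 and 56.3% with 10% of the mean profile subtracted. It fell from 50.4% to 37.3% in PF4 over CDH5 and from 49.7% to 37% in PTPRC over CDH5 with library totals. In AFP over COL3A1 it was 40.4%, against 56.6% with DESeq2, and in PTPRC over PF4 50.4%, against 39.5% with the subtraction.

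Lineages were then divided by genes outside the 6. In the CDH5 lineage, cells with CXCR4, an arterial chemokine receptor, and no NR2F2 (1212 and 1089 cells) were set against cells with NR2F2, a venous factor, and no CXCR4 (496 and 497 cells). RUNX1T1 was at 42.7 and 57.2 CPM in the former and at 177 and 192 CPM in the latter (-1.78 ± 0.31, adjusted p = 0.0022). It was the only one of the 6 to pass, where 17.3% of 17781 genes passed. The NR2F2 cells also held more of the COL3A1 list, at 210.2 and 234 CPM against 67.1 and 73.9 CPM, and of the MYH6 list, at 181 and 224 CPM against 123 and 127 CPM, whose part in the difference was not tested.

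In the PTPRC lineage, cells with the complement gene C1QA, typical of macrophages, and no MPO (406 and 198 cells) held RUNX3 at 61.2 and 60.9 CPM, and cells with MPO, the myeloperoxidase of granulocyte precursors, and no C1QA (257 and 62 cells) held it at 14.5 and 16.8 CPM. The difference was 2.00 ± 0.17 (adjusted p = 1.4e-05), 1 of 6 where 14.8% of genes passed. RUNX1 stood the other way, at 221 and 354 CPM against 508 and 505 CPM (-0.82 ± 0.34, adjusted p = 0.14), and passed with the organoid as a block (-0.88, adjusted p = 0.020). In the COL3A1 lineage, cells with WT1, an epicardial factor, and no LUM (149 and 191 cells) held RUNX2 at 17.7 and 23.2 CPM, against 45.9 and 41.1 CPM in cells with LUM, a matrix proteoglycan, and no WT1 (685 and 276 cells). This passed (-1.17 ± 0.20, adjusted p = 0.0062), 1 of 6 where 5.01% of genes passed, but not with higher gates (-1.13, adjusted p = 0.058). The WT1 cells also held more of the cardiac MYH6 list, at 987 and 740 CPM against 282 and 266 CPM, whose part in the difference was not tested.

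**Figure D5:**
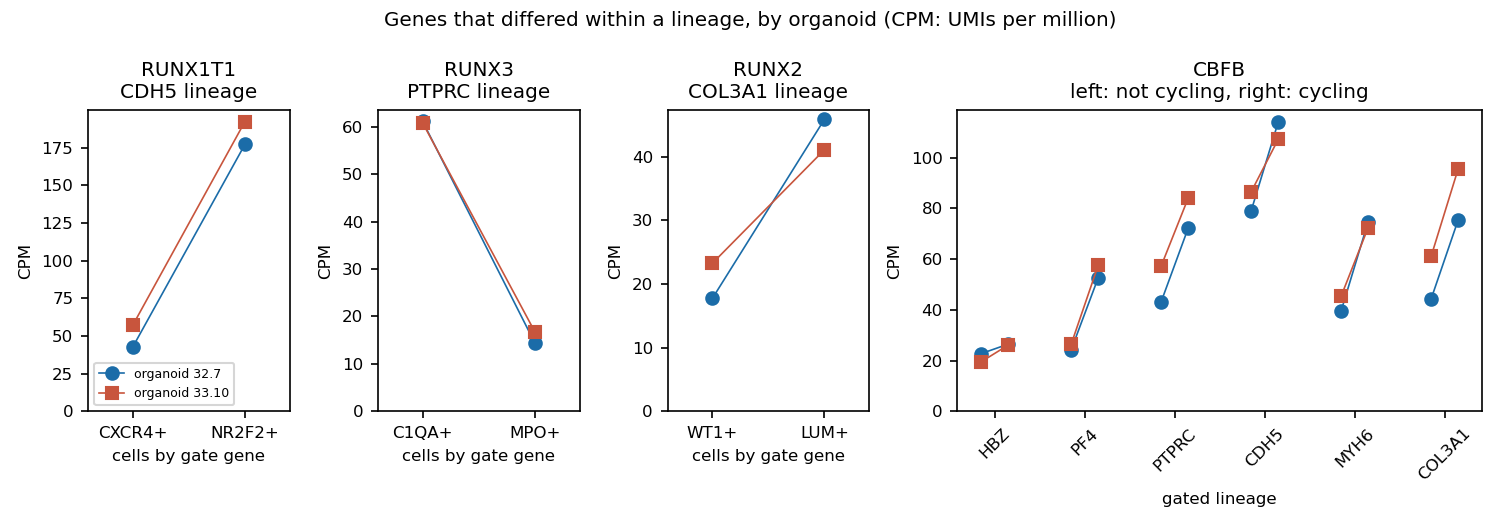
Levels (vertical axes, CPM) of genes that differed within a lineage, with lines joining the sums of the same organoid. RUNX1T1 is higher in NR2F2 than in CXCR4 cells of the CDH5 lineage, RUNX3 in C1QA than in MPO cells of the PTPRC lineage, RUNX2 in LUM than in WT1 cells of the COL3A1 lineage, and CBFB is higher in cycling cells of both organoids in all 6 lineages drawn, of which PF4, PTPRC, MYH6 and COL3A1 passed the test.

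Cycling cells were those with 3 or more UMIs of MKI67 and TOP2A, 2 proliferation genes, and were set against cells with 0. Both limits are on raw UMIs, which deeper cells reach more readily, and the part of depth was not tested. CBFB was higher in cycling PF4 cells, at 52.6 and 57.5 CPM against 24.2 and 26.4 CPM (0.93 ± 0.18, adjusted p = 0.00068). Cycling PF4 cells carried less of the PF4 list, at 4717 and 4292 CPM against 16440 and 12468 CPM, and of the HBZ list, at 1311 and 2117 CPM against 5188 and 5122 CPM. It rose likewise in PTPRC cells, from 43.2 and 57.3 to 72.2 and 84.0 CPM (0.67 ± 0.18, adjusted p = 0.014), in COL3A1 cells, from 44.3 and 61.1 to 75.4 and 95.6 CPM (0.67 ± 0.17, adjusted p = 0.014), and in MYH6 cells, from 39.6 and 45.4 to 74.8 and 72.4 CPM (0.68 ± 0.19, adjusted p = 0.035), where lower gates gave 0.61 (adjusted p = 0.060). The own list of each of these was also lower in cycling cells, at 3691 and 2680 against 6018 and 3955 CPM in PTPRC cells, 2426 and 1854 against 3551 and 2783 CPM in COL3A1 cells and 13547 and 11702 against 18432 and 16664 CPM in MYH6 cells, and the part of these shifts in CBFB was not tested. It did not pass in CDH5 cells (0.31 ± 0.17, adjusted p = 0.28) or HBZ cells (0.18 ± 0.19, adjusted p = 0.58), and the difference between lineages was not tested. Of 6 genes, 1 passed in HBZ (14.8% of 19487 genes), 1 in PF4 (22.9%), 1 in PTPRC (18.8%), 0 in CDH5 (10.6%), 2 in MYH6 (7.25%) and 1 in COL3A1 (8.93%).

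The HBZ call was RUNX1T1, at 107 and 114 CPM in cycling cells against 128 and 171 CPM (-0.59 ± 0.19, adjusted p = 0.042). The other MYH6 call was RUNX1, at 19.7 and 131 CPM in cycling cells against 11.2 and 18.8 CPM (2.31 ± 0.47, adjusted p = 0.0035). This rested on organoid 33.10: the ratio was 0.81 in organoid 32.7 and 2.81 in organoid 33.10, with 20 UMIs in 11 of 56 cells and 221 UMIs in 25 of 74 cells. Of the blood lists, the PTPRC list rose from 36.0 and 36.1 to 113 and 128 CPM and the HBZ list from 79.0 and 194 to 102 and 297 CPM. The PF4 list did not rise, at 83.1 and 106 CPM in cells not cycling and 79.7 and 101 CPM in cycling cells. The part of blood RNA was not tested.

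Endothelial cells with RUNX1 were examined for the other genes. In the CDH5 lineage, 39 and 67 cells held 2 or more RUNX1 UMIs and 2073 and 1951 held 0. These limits are also on raw UMIs, and the part of depth was not tested. CBFA2T3 was at 5.09 and 22.9 CPM in the former (4 and 34 UMIs, in 4 and 24 cells) and at 0.607 and 1.32 CPM in the latter (4.02 ± 0.61, adjusted p = 0.0064), the only one of 5 genes tested to pass, where 3.75% of 17313 genes passed. The ratio was 3.07 in organoid 32.7 and 4.11 in organoid 33.10, and with 1 or more RUNX1 UMIs as the limit it no longer passed (2.65, adjusted p = 0.40). RUNX1T1 was at 127 and 122 CPM against 81.7 and 104 CPM (0.40 ± 0.15, adjusted p = 0.22) and passed with the organoid as a block (0.39, adjusted p = 0.047). The cells with RUNX1 also carried more of the HBZ list (223 and 1163 against 58.8 and 137 CPM), the PF4 list (90.4 and 190 against 31.4 and 43.8 CPM) and the PTPRC list (442 and 324 against 61.0 and 50.8 CPM) and less of the CDH5 list (2510 and 2239 against 3526 and 3239 CPM), and the part of blood RNA in the result was not tested.

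Genes known as RUNX targets in blood were read from a list of 17, of which 16 were tested (IL3 had 0 UMIs). In PF4 over CDH5, 12 were higher and 1 lower, where 26.5% of all genes were higher and 26% lower, with a median log2 fold change of 4.29 against 0.02 over all genes. In PTPRC over CDH5 it was 12 and 1 (24.9% and 25.2% of all genes, median 4.12 against -0.04), and in HBZ over CDH5 10 and 1 (24.5% and 28.9%, median 2.41 against -0.05). CSF2 had 0 UMIs in the CDH5 lineage, and with it at its bound the medians were 4.28, 3.68 and 2.41. ITGA2B, the platelet integrin, was at 835 and 778 CPM in the PF4 lineage against 5.18 and 10.0 CPM in the CDH5 lineage (6.99 ± 0.64, adjusted p = 1.3e-06), and CSF1R, a macrophage receptor, at 158 and 145 CPM in the PTPRC lineage against 0.782 and 0.627 CPM (7.95 ± 0.31, adjusted p = 1.9e-09). The lower gene was PCTP in all 3 (-0.56 ± 0.12 in PF4 over CDH5, adjusted p = 0.0019). Several of these genes also define the blood lineages themselves. Within the PTPRC lineage, 1 was higher and 6 lower in C1QA over MPO cells (9% and 5.82% of all genes), MPO itself, which sets the gate, among the 6.

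RUNX co-factors, 16 genes, had 0 higher and 9 lower in HBZ over CDH5 (24.5% and 28.9% of all genes), 4 and 8 in PF4 over CDH5 (26.5% and 26%) and 1 and 10 in PTPRC over CDH5 (24.9% and 25.2%). Their median was -0.53, -0.45 and -0.55, against -0.05, 0.02 and -0.04 over all genes. WWTR1 (TAZ), a YAP-family co-activator, was lowest, at 1439 and 1463 CPM in the CDH5 lineage and 32.2 and 31.8 CPM in the PTPRC lineage (-5.28 ± 0.17, adjusted p = 7.5e-10). HIPK2, a kinase that phosphorylates RUNX1, was higher in PF4 over CDH5 (2.09 ± 0.19, adjusted p = 1.0e-06), and TLE4, a Groucho co-repressor, in PTPRC over CDH5 (1.15 ± 0.16, adjusted p = 4.2e-05).

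Of 14 genes of the ETO co-repressor complex, 4 were higher and 3 lower in HBZ over CDH5 (24.5% and 28.9% of all genes), 4 and 4 in PF4 over CDH5 (26.5% and 26%) and 3 and 6 in PTPRC over CDH5 (24.9% and 25.2%). GFI1B, a repressor of erythroid and megakaryocytic cells, was at 148 CPM in the PF4 lineage of both organoids and at 0.843 and 2.85 CPM in the CDH5 lineage (6.60 ± 0.54, adjusted p = 4.5e-07), and GFI1 led in PTPRC over CDH5 (5.26 ± 0.66, adjusted p = 3.3e-05). TCF4, an E protein, was lower in all 3 (-3.50 ± 0.15 in PTPRC over CDH5, adjusted p = 2.5e-09).

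Of 9 RUNX2 target genes of the skeleton, 7 were tested, and 1 was higher and 3 lower in CDH5 over COL3A1 (21.5% and 25.5% of all genes). COL1A1, which is also a marker of the COL3A1 lineage, was lower by -4.58 ± 0.19 (adjusted p = 4.6e-09). The list had 3 higher and 0 lower in HBZ over CDH5 (24.5% and 28.9% of all genes) and 2 and 0 in PF4 over CDH5 (26.5% and 26%). In PTPRC over CDH5 it had 4 and 1 (24.9% and 25.2%). In MYH6 over COL3A1 it had 0 and 1, where 36.7% of all genes passed in either direction. In AFP over COL3A1 it had 1 and 1 (20.8% in either direction). The osteoblast genes SP7 and IBSP were at 0.403 CPM or less in each of the 7 lineages. In WT1 over LUM cells, COL10A1 passed (2.19 ± 0.37, adjusted p = 0.0056), in the direction opposite to RUNX2.

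Genes with the most similar pattern over the 7 lineages were named by Pearson's r of log2(CPM + 1) of the organoid means, among 12913 genes. As a description over 7 points that share libraries, r was 0.98 for LRMP and RUNX1, 0.99 for PRR16 and RUNX2, 1.00 for ITGB2-AS1 and RUNX3, 0.99 for PGGT1B and CBFB, 0.99 for SLC35E2A and RUNX1T1 and 0.99 for TMEM164 and CBFA2T3. Each r was picked as the highest among those genes, and it does not measure the size of differences. SLC35E2A ran from a mean of 10.3 to 15.6 CPM over the lineages, and RUNX1T1 from 20.7 to 323 CPM.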

How the data were processed

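Both libraries were sequenced as 10x Chromium 3ʹ v3.1 and, per the labels and the submitters' processing notes, aligned with Cell Ranger 7.0.0 to GRCh38, introns included. The deposited matrices hold raw UMI counts per gene and barcode, without the aggregation or the free-RNA correction the authors applied later. The authors' cell limits were applied here (50 to 11000 genes, under 30% mitochondrial UMIs), leaving 16792 of 16866 barcodes (191152562 UMIs over all barcodes) and 19893 of 19948 (233818881 UMIs). No doublet caller was run. Exclusive gates leave mixed droplets that pass 2 gates out of the lineages, except those with PTPRC and either HBZ or PF4. Apart from the cells with CDH5 and PTPRC, 1195 cells of organoid 32.7 and 1613 of organoid 33.10 were left out for passing several gates.

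Counts were summed per lineage and organoid, since cells are not replicates, and tested with edgeR 4.0.16 (R 4.3.3; TMM, low genes filtered, quasi-likelihood). The SE was taken from the fold change and the F statistic. Sums of the same organoid are paired by that organoid, and the fit with it as a block was an alternative, as were DESeq2 1.42.0, other gates, filters and scalings. The study's methods describe organoids as grown independently of each other, and p-values rest on the spread between these 2 from 1 cell line. That spread was shared over all lineages of a fit. SEs and p-values of AFP comparisons therefore do not reflect the spread of the AFP lineage itself, with 12 cells in organoid 33.10. The 6 genes and all lists were chosen with earlier results of these data known. Apart from SP7, IBSP and IL3, genes named from a list had the largest called difference in a direction of some comparison. Not every such gene is named. Of the 3 genes ranked by r per member, the highest was named. 1 marker of the HBZ lineage is not reported here and entered no sum.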

Additional observations from a re-analysis of the deposited data

How the results depend on the processing

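Over the alternatives to the 9 lineage comparisons and the divisions within lineages, 829 of 933 values of single genes kept their direction and their side of the threshold, 33 passed only under the alternative, 32 no longer passed and 39 changed sign. In 2 of the 39 a value passed the test under 1 of the settings: RUNX3 in HBZ over CDH5 (-1.97) and in PF4 over CDH5 (-0.38) with PTPRC-positive cells left out of those lineages. The other 37 passed under neither and are given at the end. The number of the 6 genes that passed stayed within 1.5 times in 141 of 156 cases. With library totals it was 3 in place of 5 in HBZ over CDH5, where calls over all genes were 12645 in place of 11747. With 10% of the mean profile subtracted it was 1 in place of 4 in AFP over COL3A1, where calls over all genes were 4101 in place of 4571. In MYH6 over COL3A1 it was 2 in place of 1 with all barcodes and without the AFP lineage, an alternative chosen after seeing the data. Calls over all genes there were 7901 and 8512 in place of 8070. With lower gates it was 2 in place of 1 in C1QA over MPO cells, in cycling PF4 cells and in cycling PTPRC cells, and 1 in place of 2 in cycling MYH6 cells. With higher gates it was 0 in place of 1 in WT1 over LUM cells and 2 in place of 0 in cycling CDH5 cells, and with 1 RUNX1 UMI as the limit it was 0 in place of 1. Such counts alone say little about the 6 genes, and the causes of these changes were not tested.

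The organoid as a replicate block, the pairing given by sums of the same organoid, gave 5 in place of 3 genes in HBZ over PF4 and 2 in place of 1 in MYH6 over COL3A1, in C1QA over MPO cells and in CDH5 cells with RUNX1. With CBFB in CDH5 over COL3A1 (0.53), these are all the calls of the 6 genes that the block changed. Calls over all genes rose as well, from 8830 to 10222 in HBZ over PF4 and from 8070 to 9897 in MYH6 over COL3A1. Leaving out replicate 1 or 2 leaves no residual spread, so those are ratios without a test. RUNX2 in HBZ over CDH5 ranged from -0.17 to 0.46 and changed sign without replicate 1, the only value passing the test to do so. Of 108 values, 16 changed sign without replicate 1 and 8 without replicate 2, the others not passing the test.

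The fit without cells above the 90th percentile of UMIs could not include the AFP lineage, and cycling AFP cells were too few for a fit. Depth limits RUNX3 and CBFA2T3 outside blood and every AFP value of organoid 33.10.

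The 37 values were as follows. Library totals gave RUNX3 -0.28 in HBZ over CDH5, and RUNX2 -0.19 and RUNX1T1 -0.0074 in PF4 over CDH5. Lower gates gave RUNX3 -0.23 in HBZ over CDH5, CBFA2T3 -0.22 in CDH5 over COL3A1, RUNX1 -0.20 in CXCR4 over NR2F2 cells, CBFB -0.11 in C1QA over MPO cells, and in cycling cells CBFA2T3 0.020 in PF4 and -0.22 in CDH5 and RUNX2 -0.35 in MYH6. Higher gates gave RUNX2 -0.042 in PF4 over CDH5, RUNX3 -0.29 in CXCR4 over NR2F2 cells, CBFB -0.037 in C1QA over MPO cells, and in cycling cells RUNX3 -0.030 and RUNX1T1 0.072 in PTPRC, RUNX3 0.50 in CDH5 and CBFA2T3 1.08 in COL3A1. Gates per 10000 UMIs gave CBFB 0.0013 in PTPRC over CDH5, CBFA2T3 -0.34 in CDH5 over COL3A1, RUNX1 0.62 in MYH6 over COL3A1 and RUNX3 1.32 in AFP over COL3A1, where both AFP sums of the reported gates held 0 UMIs. DESeq2 gave RUNX2 0.058 in HBZ over PTPRC, RUNX1 -0.015 in CXCR4 over NR2F2 cells, CBFB -0.0074 in C1QA over MPO cells and RUNX3 -0.18 in cycling PTPRC cells. The subtraction of 10% gave RUNX2 0.11 in HBZ over PTPRC, RUNX1 -3.09 and CBFA2T3 -0.024 in CXCR4 over NR2F2 cells, RUNX1T1 1.12 in C1QA over MPO cells and RUNX3 0.74 in WT1 over LUM cells. Without cells above the 90th percentile of UMIs, RUNX3 was -0.61 in HBZ over CDH5, RUNX2 0.070 in HBZ over PTPRC and CBFA2T3 -0.11 in CDH5 over COL3A1. The replicate block gave CBFA2T3 -0.0096 in CDH5 over COL3A1 and CBFB -0.013 in C1QA over MPO cells. With 1 RUNX1 UMI as the limit, RUNX2 was -0.015 and CBFB -0.019.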
